A study of Homo sapiens with 12 samples.

Results

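Microexons are taken here as cassette exons of at most 27 nucleotides (nt). They were followed in A549 cells carrying a control shRNA or one against the splicing factor RNF113A, untreated or exposed to Cisplatin. They were chosen by length alone, from the deposited tables of skipped exon events, each of which is a cassette exon together with its 2 flanking exons. An event was kept in a comparison if inclusion and skipping reads summed to 10 or more in each of the 6 libraries. The tables held 708 microexons in 1000 events, and 535 microexons in 709 events of 484 genes reached this minimum in at least 1 of the 4 comparisons. They stood among 58056 cassette exons in 85056 events. The other 173 microexons never reached the minimum and have no value here.

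A microexon gives the splicing machinery little exonic sequence to recognise, and its inclusion depends on the flanking introns and on dedicated proteins. The best known is SRRM4, a neuronal protein that binds a short motif, with the letters TGC in DNA, just upstream of the exon, while PTBP1 holds many such exons out of the mRNA in other cells. Microexons whose length is a multiple of 3 leave the reading frame intact and add or remove a few residues, often on protein surfaces that bind partners in vesicle traffic, the cytoskeleton and signalling. RNF113A is a RING finger protein of the spliceosome, and Cisplatin crosslinks DNA.

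All cells were A549, a human lung adenocarcinoma line, and all had been infected with lentivirus and selected with puromycin, so the control cells share both treatments. The shRNA they carried was either a control (shControl) or directed at RNF113A (shRNF113A), and they were left untreated or given 25 µg/ml Cisplatin for 20 h in full medium. There were 3 libraries in each of the 4 groups and 12 in all. The study's methods call the 3 libraries of a condition biological replicates. The sources used here do not say how their cultures were kept apart, so each p-value measures the spread between these libraries.

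RNF113A itself stood at 20.3, 19.3 and 19.9 CPM, the counts scaled to a common library size, in untreated shControl cells and at 15.3, 15.8 and 16.9 in untreated shRNF113A cells. These groups did not overlap, and the log2 difference was −0.31 ± 0.092 (SE, adjusted p = 0.0247, edgeR). It missed the threshold without shControl library 1 or 3 or shRNF113A library 1 or 2 (adjusted p up to 0.094). After Cisplatin the levels were 31.7, 28.9 and 27.9 CPM in shControl and 25.8, 24.3 and 29.5 CPM in shRNF113A cells. Here the groups overlapped and the difference did not pass the test (−0.14, adjusted p = 0.233), so the shRNF113A groups are named below by their labels. These are values of mRNA only. The paper examined depleted A549 cells by western blot, and protein was not measured in these libraries. Libraries held 26220526 to 45721152 read pairs assigned to genes. The 3 Cisplatin-treated shRNF113A libraries were the smallest, at 30806147 or fewer, and 21.8 to 22.6% of their pairs were assigned to no gene, against 14.0 to 18.9% elsewhere. All 9 markers of lung adenocarcinoma cells were expressed, with summed levels of 10600 to 29000 CPM. Of the markers of neurons, leukocytes, fibroblasts and endothelium, 3 of 6, 1 of 3, 1 of 4 and 0 of 3 reached a mean of 1 CPM, with summed levels of at most 65.9, 72.9, 35.1 and 0.787 CPM in any library.

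The sequences of the exons on which the results turn are shown first, to set their size against their splice sites. Capitals mark the exon and lower case the adjoining bases (30 before and 15 after). They are read 5′ to 3′ on the strand of the gene from GRCh37, the build of the tables (hg19). The first set holds 6 exons whose inclusion was lower after Cisplatin, of 12 to 27 nt. INCENP lies at chr11:61908972-61908983 (plus strand), MARK3 at chr14:103964839-103964865 (plus), PICALM at chr11:85689113-85689136 (minus), FLNA at chrX:153585619-153585642 (minus), SUPT5H at chr19:39948934-39948945 (plus) and GRIPAP1 at chrX:48854566-48854592 (minus). All 6 are coding in the reference annotation and are multiples of 3.
INCENP: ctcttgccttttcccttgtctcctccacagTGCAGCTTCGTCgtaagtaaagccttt
MARK3: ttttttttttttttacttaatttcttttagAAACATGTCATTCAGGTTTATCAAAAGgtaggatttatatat
PICALM: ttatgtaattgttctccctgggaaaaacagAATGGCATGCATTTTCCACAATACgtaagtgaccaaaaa
FLNA: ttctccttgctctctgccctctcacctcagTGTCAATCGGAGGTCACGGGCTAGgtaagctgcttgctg
SUPT5H: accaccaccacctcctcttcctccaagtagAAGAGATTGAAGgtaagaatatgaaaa
GRIPAP1: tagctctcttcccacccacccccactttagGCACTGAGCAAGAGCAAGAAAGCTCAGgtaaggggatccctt

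The second set holds exons that differed, or came closest to differing, between shRNF113A and shControl cells. They are IDH3G at chrX:153056019-153056030 (minus strand), EIF4A1 at chr17:7481545-7481562 (plus), RPL41 at chr12:56510973-56510995 (plus) and DNM2 at chr19:10919245-10919256 (plus). All 4 are coding, and only the RPL41 exon, of 23 nt, is not a multiple of 3. The EIF4A1 exon shares an end with a longer cassette exon. The lower case bases at its other end are therefore at least partly exon and not intron.
IDH3G: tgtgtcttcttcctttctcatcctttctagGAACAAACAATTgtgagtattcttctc
EIF4A1: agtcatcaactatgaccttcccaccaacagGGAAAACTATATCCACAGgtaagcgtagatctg
RPL41: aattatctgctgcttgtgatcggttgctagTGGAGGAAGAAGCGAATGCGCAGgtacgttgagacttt
DNM2: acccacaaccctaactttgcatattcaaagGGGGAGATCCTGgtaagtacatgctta

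The third set holds 3 of the shortest measured exons, of 9 nt each and all coding, which span the range from mostly skipped to nearly always included. KIF3A lies at chr5:132042143-132042151, AP1B1 at chr22:29725701-29725709 and NUDT5 at chr10:12212899-12212907, all on the minus strand.
KIF3A: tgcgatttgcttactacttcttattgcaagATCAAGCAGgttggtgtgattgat
AP1B1: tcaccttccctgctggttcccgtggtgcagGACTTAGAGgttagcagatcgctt
NUDT5: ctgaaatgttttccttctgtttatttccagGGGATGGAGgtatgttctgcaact

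The 535 microexons were 3 to 27 nt long. Of these, 16 had at most 9 nt, 146 had 10 to 18 nt and 373 had 19 to 27 nt. The most frequent length was 27 nt, with 90 exons, followed by 24 nt with 73. The lengths 12, 15, 18, 21, 24 and 27 nt each held more exons than their neighbouring lengths within this range. In all, 334 (62.4%) were multiples of 3, against 43.5% of 5172 cassette exons of 28 to 60 nt and 40.0% of the 57521 above 27 nt. In the reference annotation 425 were coding, of which 295 were multiples of 3, and 12 more were partly coding. A further 38 lay in transcripts marked for nonsense-mediated decay, 34 in noncoding transcripts, 23 in 5′ UTRs and 1 in a 3′ UTR, and 2 were not annotated with these ends. Some members are not independent, since 96 microexons had 2 or more events (at most 19) and 99 shared an end with a longer cassette exon, and such events share reads. Where an end is shared, reads of the longer exon can count as inclusion of the microexon.

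**Figure D1:**
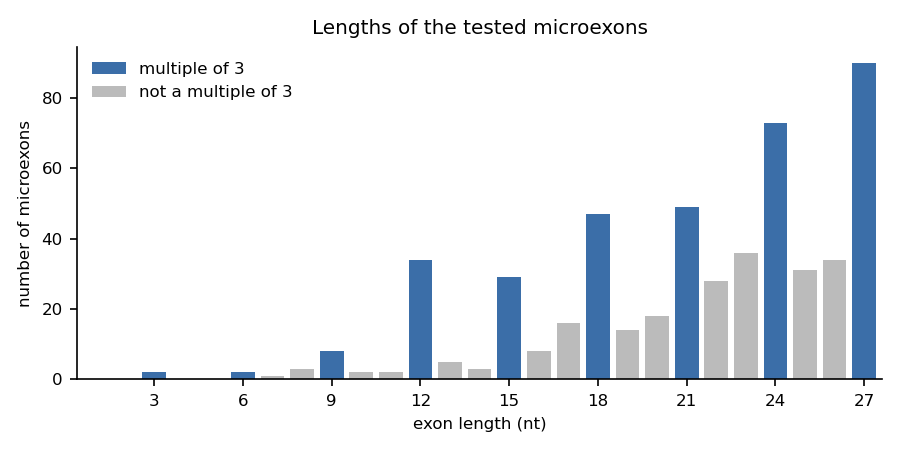
Number of tested microexons (vertical axis) at each exon length in nt (horizontal axis), with multiples of 3 in blue and other lengths in grey. The blue bars stand above their grey neighbours from 12 nt on and reach 90 exons at 27 nt.

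The splice sites were of the usual kind. The exon was preceded by AG in 99.4% of microexons and followed by GT in 98.9%, against 99.9 and 98.6% of the cassette exons above 27 nt. The median share of C or T in the 30 bases upstream, leaving out the AG position next to the exon, was 75%. It was 71.4% for exons of 28 to 60 nt and 67.9% above 27 nt. The letters TGC, searched on the strand of the exon, occurred within 30 bases upstream in 46.2% of microexons, 37.6% of exons of 28 to 60 nt and 39.8% above 27 nt. Within 50 bases upstream they occurred in 60.9, 53.5 and 55.5%, respectively. Of the sequences shown above, those of INCENP, FLNA, RPL41, DNM2, KIF3A and AP1B1 hold TGC upstream of the exon. A match is a description of the letters and not of a bound site.

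The inclusion level of an event is the share of transcripts that hold the exon. It was computed from inclusion reads divided by the exon length plus 72 positions and skipping reads divided by 72 positions. In untreated shControl cells the 537 microexon events had a median level of 92.8%, with quartiles of 3.30 and 99.5%. Levels under 10% were seen in 27.9% of these events, levels of 10 to 90% in 19.6% and levels over 90% in 52.5%. Among 5468 events of exons of 28 to 60 nt the shares were 14.7, 12.9 and 72.3%, and the median was 98.8%. Medians were 99.2% for both 61 to 150 nt and over 150 nt. Microexons were thus found more often at the low end and in the middle of the scale than longer cassette exons. On the 2 sides of the length limit, the 90 events of 27 nt had a median of 93.8% and the 32 events of 28 nt, just outside it, a median of 98.9%, with 25.6 and 12.5% of events under 10%. Since 27 is a multiple of 3 and 28 is not, length and reading frame cannot be told apart here. Multiples of 3 also made up 62.4% of microexons and 43.5% of exons of 28 to 60 nt, and the part of frame in these levels was not tested. No test was made, as these are levels of many exons within the same 3 libraries.

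**Figure D2:**
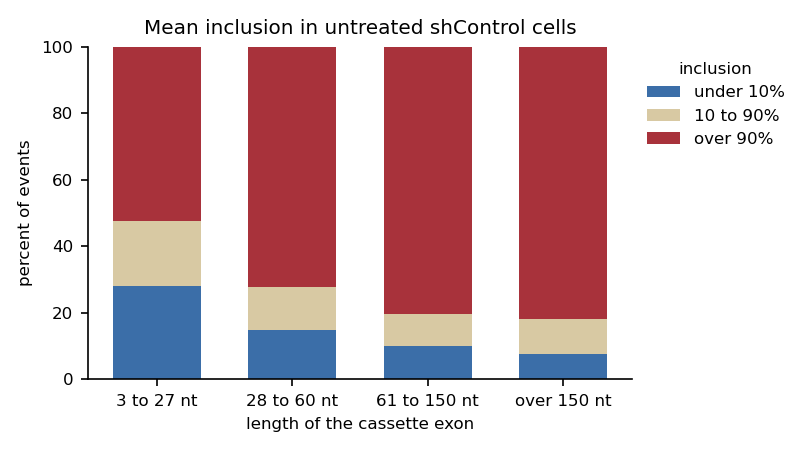
Percent of cassette exon events (vertical axis) with mean inclusion under 10%, of 10 to 90% and over 90% in untreated shControl cells, for 4 classes of exon length in nt (horizontal axis). The share under 10% is 27.9% at 3 to 27 nt and 14.7% at 28 to 60 nt.

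For 369 microexons with 10 or more reads in all 12 libraries, the level was set beside the reading frame, using for each exon the event with the most reads. The 233 multiples of 3 had a median level of 37.4% in untreated shControl cells, and 28.8% of them lay between 10 and 90%. The 136 others had a median of 97.6%, and 13.2% lay between 10 and 90%. With 20 or more reads in every library, 311 microexons remained, of which 106 had a mean level under 10%, 70 between 10 and 90% and 135 over 90%. Multiples of 3 made up 72.6, 78.6 and 43.7% of these classes, respectively. Multiples of 3 were therefore the larger part of those skipped or alternatively spliced, and the smaller part of those almost always included.

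Over all 369 microexons the median level was 83.3% in untreated and 80.4% in Cisplatin-treated shControl cells, and 75.8 and 71.5% in the corresponding shRNF113A cells. Medians of single libraries ranged from 80.5 to 83.6%, 76.8 to 79.7%, 76.0 to 76.6% and 71.1 to 72.5% in these groups, which did not overlap. Few exons lie near the median, because most levels are close to 0 or 100%. The share of microexons over 90% moved less, at 45.0, 44.7, 44.4 and 43.1%. The share under 10% was 32.0, 33.3, 33.1 and 33.1%. These are descriptions of 1 list of exons, with no test. The Cisplatin-treated shRNF113A libraries, which had the lowest median, were also those with the fewest assigned pairs, and the part of depth in this order was not tested.

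Some microexons at the 2 ends of the scale had many reads. At the low end, an 18 nt exon of RPS24, a protein of the small ribosomal subunit, was included at 1.10 ± 0.0503% (SD, n = 3) in untreated shControl cells. A 24 nt exon of TKT, transketolase of the pentose phosphate pathway, stood at 0.285 ± 0.0221%. A 17 nt exon of LGALS1, galectin-1, stood at 0.0621 ± 0.0237%. At the high end, a 20 nt exon of NAP1L1, a histone chaperone, was included in every read of the 3 libraries, and a 27 nt exon of UQCRH, a subunit of respiratory complex III, stood at 97.5 ± 0.0432%. The exons of TKT, LGALS1 and UQCRH share an end with a longer cassette exon, whose reads can count as their inclusion.

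The shortest exons were often alternatively spliced. Of 12 microexons of 3 to 9 nt with enough reads in all libraries, 2 lay under 10%, 6 between 10 and 90% and 4 over 90% in untreated shControl cells. The 9 nt exon of KIF3A, a subunit of the kinesin-2 motor of cilia, was included at 33.4, 17.3 and 37.7% in untreated and 47.9, 30.2 and 40.7% in Cisplatin-treated shControl cells. In shRNF113A cells it stood at 24.4, 29.6 and 19.7% and at 35.8, 31.4 and 36.8%. These levels overlapped in every comparison but that of Cisplatin in shRNF113A cells (10.1 points, adjusted p = 0.682).

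The 9 nt exon of AP1B1, a subunit of the AP-1 clathrin adaptor, was close to it, at 37.4, 47.5 and 32.3% in untreated shControl cells. The 9 nt exon of PTK2, focal adhesion kinase, stood at 31.7, 42.3 and 33.1%, and that of the motor protein MYO5A at 69.0, 60.2 and 73.5%. NUDT5, a nucleotide sugar hydrolase, included its 9 nt exon at 99.4 to 99.8% in all 4 group means, and PTPRJ, a receptor phosphatase, at 99.6% or more. The 6 nt exon of NSMF went the other way, with a mean of 0.618% or less in every group. The 3 nt exon of C14orf166, the shortest named, had group means of 91.8 to 97.3% from as few as 25 reads in a library. It shares an end with a longer cassette exon, whose reads can count as its inclusion, so the level may not be that of the 3 nt form. None of these exons passed the test in any of the comparisons.

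MTSS1L, which encodes an actin-bundling protein of membrane protrusions, held the 9 nt exon with the largest differences among those named. It was included at 37.0, 38.6 and 36.6% in untreated and 31.7, 25.0 and 26.8% in Cisplatin-treated shControl cells, and at 47.1, 41.3 and 53.0% and 22.2, 20.3 and 20.1% in shRNF113A cells. The groups did not overlap in any of the 4 comparisons. The largest difference, −26.3 points with Cisplatin in shRNF113A cells, had an adjusted p of 0.0721 and did not pass the test, with as few as 28 reads in a library.

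The next question was how Cisplatin changed microexon inclusion in control cells. In shControl cells 537 microexon events were tested among 59022 events, with edgeR's quasi-likelihood test of inclusion against skipping reads. A call required an adjusted p under 0.05 and group means at least 20 percentage points apart. A single microexon event, that of INCENP, was called (0.186% of the members), where 0.0576% of all events were called. By adjusted p alone 2 events passed, both lower (0.372%), beside 0.315% of all events. At an unadjusted p under 0.05 there were 40 (7.45%), against 5.41% of all events.

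INCENP, the inner centromere protein that anchors the Aurora B kinase complex in mitosis, gave the larger difference. Its 12 nt exon was included at 50.1, 57.4 and 58.8% in untreated and at 23.6, 30.5 and 27.01% in Cisplatin-treated shControl cells. The groups did not overlap, and the mean fell from 55.4 ± 4.7% to 27.03 ± 3.44% (SD, n = 3), a difference of −28.4 points (adjusted p = 0.0466, edgeR). The call was lost when any 1 of the 6 libraries was left out (adjusted p of 0.141 to 0.618, with −31.1 to −26.7 points) and with DESeq2 (adjusted p = 0.905).

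HNRNPC encodes an RNA-binding protein that competes with U2AF2 at uridine tracts, and its 26 nt exon lies in the 5′ UTR at chr14:21731470-21731495 (minus strand). This exon shares an end with a longer cassette exon, whose reads can count as its inclusion. It has 4 events, of which only the 1 given here passed the adjusted p in any comparison. It was included at 84.0, 82.6 and 84.0% in untreated and at 68.3, 70.5 and 67.3% in Cisplatin-treated shControl cells. The difference was −14.9 points (adjusted p = 0.0104), from at least 1586 reads a library. It lost the test without untreated library a or c or Cisplatin-treated library a or c (adjusted p up to 0.346) and with DESeq2 (adjusted p = 0.993). Across all 537 events, 57.9% were lower after Cisplatin, against 46.7% of all events, and the median difference was −0.144 points, against 0.0396.

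The same comparison in shRNF113A cells gave more events. Among 506 microexon events of 60616, 3 events of 2 exons, in INCENP and MARK3, were called (0.593%), where 0.262% of all events were called. By adjusted p alone 22 events of 20 exons passed (4.35%), beside 1.82% of all events. Inclusion was lower in 18 of them and higher in 4, whereas all events split almost evenly, with 0.894% lower and 0.922% higher. With TMM scaling of the read columns, which shifted the median log2 odds ratio of the microexon events by 0.17, the split was 12 lower and 6 higher. Lower events were still the larger number, by a smaller margin. The split of all events under this scaling was not counted, so these 12 and 6 have no background beside them. Of the 20 exons, 13 were coding, 3 partly coding, and 1 each lay in a 5′ UTR, a 3′ UTR, a noncoding transcript and a decay transcript, while 11 were multiples of 3.

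The INCENP exon again showed the largest fall. It was included at 61.1, 54.8 and 66.4% in untreated shRNF113A libraries and at 18.02, 27.1 and 18.6% after Cisplatin. The difference of −39.5 points (adjusted p = 1.05e-06) passed the test whichever library was left out, with −42.5 to −36.7 points, and with DESeq2 (adjusted p = 0.012).

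MARK3, a kinase of microtubule-associated proteins that helps set cell polarity, carries a 27 nt exon that was included at 42.1, 35.3 and 48.4% in untreated and 16.4, 22.9 and 19.8% in Cisplatin-treated shRNF113A cells (−22.2 points, adjusted p = 0.00883). A second event of the same exon, with another downstream exon, went from 92.9 ± 0.891% to 65.4 ± 10.4% (−27.6 points, adjusted p = 0.0283). The first event lost the test without untreated library a or c or Cisplatin-treated library a or c (adjusted p up to 0.192) and with DESeq2 (adjusted p = 0.37). In shControl cells it went from 53.6, 26.8 and 47.2% to 24.9, 19.5 and 31.7%, where the groups overlapped and the test was not passed (−17.2 points, adjusted p = 0.297).

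The next exons passed the adjusted p with less than 20 points between the groups. PICALM recruits clathrin to membranes, and its 24 nt exon was included at 93.5, 91.7 and 97.1% in untreated and 80.7, 83.0 and 67.7% in Cisplatin-treated shRNF113A cells (−17.0 points, adjusted p = 7.96e-05). The groups did not overlap, and it passed the test whichever library was left out, but not with DESeq2 (adjusted p = 0.141). This is 1 of 2 events of the PICALM exon, and the other did not pass or was not tested. FLNA, which crosslinks actin filaments, included its 24 nt exon at 74.9, 72.9 and 77.2% before and 57.5, 59.0 and 60.3% after treatment (−16.1 points, adjusted p = 0.000992). It lost the test without untreated library a or c or Cisplatin-treated library a (adjusted p up to 0.0802) and with DESeq2 (adjusted p = 0.731). GRIPAP1, a protein of recycling endosomes, went from 96.6, 98.1 and 95.9% to 79.4, 86.7 and 91.0% at its 27 nt exon (−11.2 points, adjusted p = 0.00797), in 1 of 2 events of the exon. The other event did not pass or was not tested. The event given lost the test when any untreated library or Cisplatin-treated library a was left out (adjusted p up to 0.341), and with DESeq2 (adjusted p = 0.221).

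SUPT5H is a subunit of the DSIF elongation factor, and its 12 nt exon was included at 95.5, 96.1 and 93.6% in untreated and 82.6, 82.4 and 84.4% in Cisplatin-treated shRNF113A cells. The difference of −12.0 points (adjusted p = 1.41e-06) also passed without each library in turn, but not with DESeq2 (adjusted p = 0.133). The HNRNPC exon fell from 80.5, 82.0 and 79.8% to 64.5, 64.95 and 59.6% (−17.7 points, adjusted p = 6.91e-06), which passed without each library in turn and not with DESeq2 (adjusted p = 0.475). DKC1, the pseudouridine synthase dyskerin, had an 11 nt exon of a decay transcript without a skipping read in the 3 untreated libraries, and its level was 88.8, 90.7 and 85.4% after Cisplatin (−11.7 points, adjusted p = 0.0323). That exon shares an end with a longer cassette exon, and it lost the test when any 1 of the 6 libraries was left out (adjusted p of 0.0841 to 0.311). It also missed with TMM scaling (adjusted p = 0.0522) and with DESeq2 (adjusted p = 0.0769).

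A 23 nt exon of GAS5, a noncoding host gene of small nucleolar RNAs, fell from 91.2, 91.8 and 90.9% to 82.9, 87.1 and 81.3% (−7.54 points, adjusted p = 0.0142), and lost the test when any untreated library or Cisplatin-treated library a was left out (adjusted p up to 0.238) and with TMM scaling (adjusted p = 0.138). The test was also lost with DESeq2 (adjusted p = 0.833). The GAS5 exon also shares an end with a longer cassette exon, and no other of its 13 events passed here. The exon with the largest rise was a 24 nt exon of GOPC, a PDZ protein of the Golgi. It was included at 1.78, 1.08 and 2.33% in untreated and 10.0, 10.2 and 10.2% in Cisplatin-treated shRNF113A cells (8.41 points, adjusted p = 0.0497). The groups did not overlap, yet the exon lost the test when any 1 of the 6 libraries was left out (adjusted p of 0.19 to 0.408) and with DESeq2 (adjusted p = 0.208).

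The remaining 11 events, of 10 exons in 8 genes, changed by 0.247 to 6.92 points, 8 lower and 3 higher. RPS24 held 3 of these exons, and they did not move alike. Its 22 nt exon rose from 7.60 to 14.0% and its 25 nt exon from 1.36 to 2.55%, while its 18 nt exon fell from 7.14 to 3.18% in an event other than the one described above. The first pair share an end and therefore reads. Among events that were almost always included, that of the 18 nt exon of EIF4A1, an RNA helicase of translation initiation, went from 98.5 to 94.7%. This exon shares an end with a longer cassette exon, whose reads can count as its inclusion. The level may therefore not be that of the 18 nt form. The 22 nt exon of TIMM50, a subunit of the mitochondrial inner membrane import complex, went from no skipping to 97.1% in 1 of its 4 tested events. RPL41, RPS24, HNRNPC and EIF4A1 have processed copies elsewhere in the genome, and how the alignment shared reads with those copies was not tested. The gene counts list EIF4A1 at 0 in all 12 libraries, although its exon had at least 1523 reads in each.

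**Figure D3:**
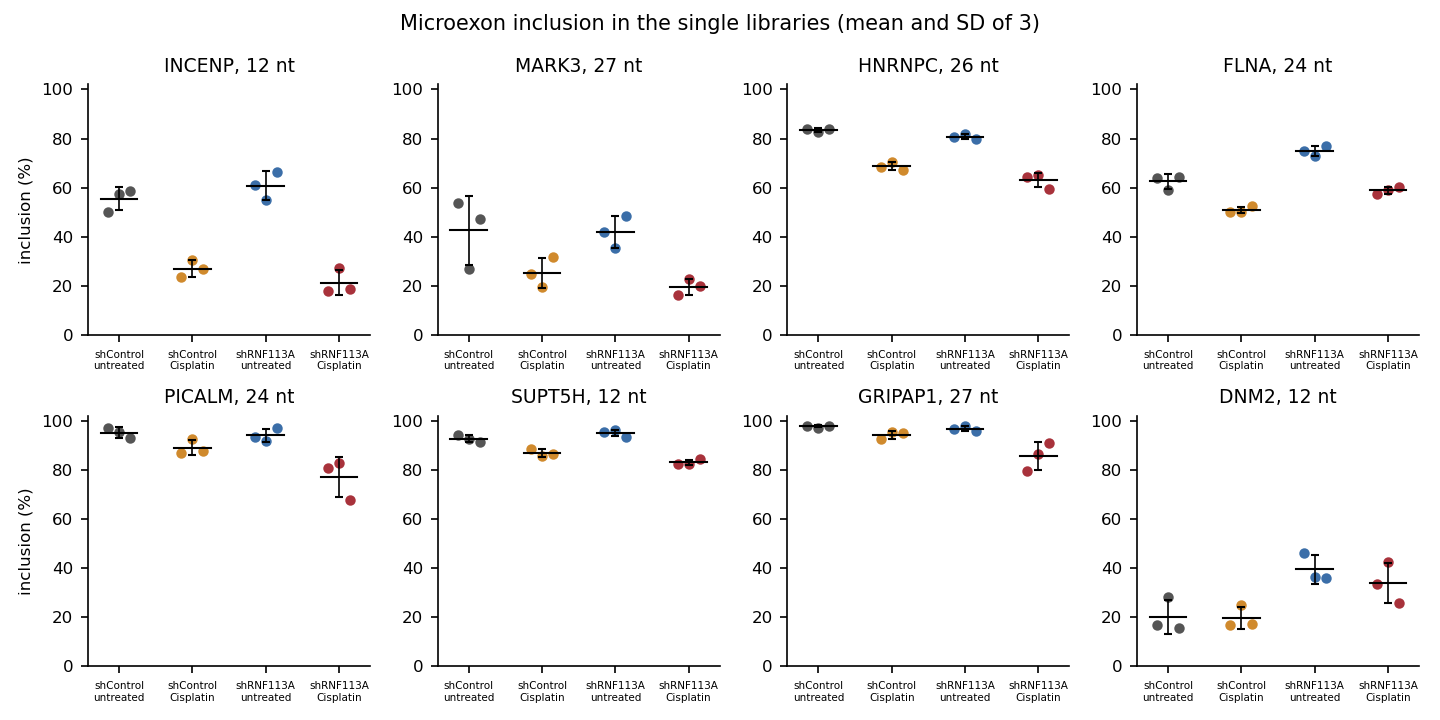
Inclusion in percent (vertical axis) of 8 microexons in the single libraries of the 4 groups (horizontal axis), with horizontal lines at the mean of 3 libraries and bars of 1 SD. The INCENP exon is lower after Cisplatin in shControl (55.4 to 27.03%) and in shRNF113A cells (60.8 to 21.2%), and the DNM2 exon is higher in untreated shRNF113A (39.5%) than in untreated shControl cells (20.2%), without passing the test.

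Over all 506 microexon events, 59.5% were lower after Cisplatin in shRNF113A cells, against 50.7% of all events, and the median difference was −0.258 points, against −0.0118. The middle 90% of microexon events lay between −10.3 and 4.49 points and that of all events between −5.21 and 5.71. Leaving out 1 library gave 7 to 17 events by adjusted p, the fewest without untreated library a, and DESeq2 gave 2, INCENP among them. The median event had 95.1 reads a library, against 191 over all events, and the share of pairs assigned to no gene was higher in the treated libraries, whose part in these counts was not tested. Microexon events also lay more often between 10 and 90% inclusion (19.6%, against 12.9% at 28 to 60 nt, in untreated shControl cells). The part of this starting level was not tested either.

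The events that passed in shRNF113A cells were set beside their values in shControl cells, which are other libraries. Of the 18 lower events 17 were also tested there, and 16 (94.1%) were lower, beside 85.6% for all events that were lower. Their median was −11.2 points in shRNF113A and −4.82 points in shControl cells. All 4 higher events were higher in shControl cells as well (medians of 4.44 and 1.64 points), beside 97.4% for all events. These counts describe direction only, since INCENP and HNRNPC alone passed the test in shControl cells.

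**Figure D4:**
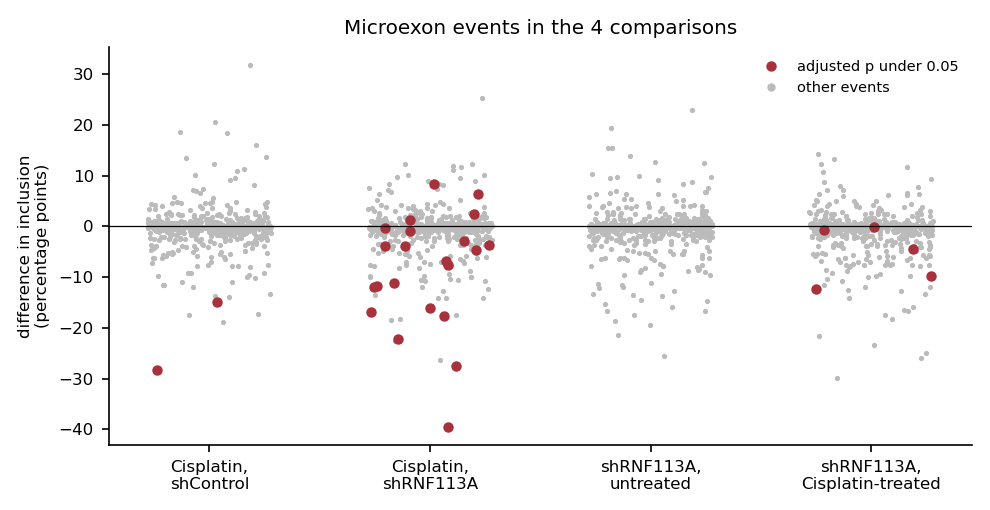
Difference in mean inclusion in percentage points (vertical axis) of every tested microexon event in the 4 comparisons (horizontal axis, with random sideways scatter), where red points have an adjusted p under 0.05. Cisplatin in shRNF113A cells has 22 red points, 18 of them below 0, and the other comparisons have 2, 0 and 5.

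The effect of the shRNA against RNF113A was then compared in untreated cells. Among 522 microexon events of 59639, edgeR called 0 and passed 0 by adjusted p, where 0.0134 and 0.0939% of all events did. At an unadjusted p under 0.05 edgeR gave 34 (6.51%), against 3.79% of all events. DESeq2 passed 0 as well, with 21 at an unadjusted p under 0.05. The median difference was −0.151 points and 56.5% of the microexon events were lower, against −0.0642 points and 54.9% of all events.

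The event with the smallest p belonged to DNM2, dynamin 2, the GTPase that cuts clathrin-coated vesicles from the membrane. Its 12 nt exon was included at 16.7, 28.3 and 15.7% in shControl and at 46.2, 36.6 and 35.9% in shRNF113A cells. The groups did not overlap, and the difference of 19.3 points had an adjusted p of 0.0576. It passed the test with TMM scaling (adjusted p = 0.0218) and without shControl library b (23.3 points, adjusted p = 0.00402). With any other library left out its adjusted p was 0.462 to 0.856, and with DESeq2 it was 0.963. After Cisplatin the exon stood at 16.8, 25.1 and 17.3% in shControl and 33.6, 42.5 and 25.9% in shRNF113A cells (14.3 points, adjusted p = 0.415), again without overlap.

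The FLNA exon was included at 64.1, 59.1 and 64.3% in shControl and 74.9, 72.9 and 77.2% in shRNF113A cells, with no overlap (12.5 points, adjusted p = 0.287). It did not pass the test.

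In Cisplatin-treated cells the same comparison covered 517 microexon events of 59768. None was called, where 0.0569% of all events were called, and with DESeq2 none passed the adjusted p. By adjusted p alone edgeR passed 5 events of 4 exons (0.967%), beside 0.721% of all events. All 5 were lower in shRNF113A cells, where 0.540% of all events were lower and 0.181% higher. At an unadjusted p under 0.05 edgeR gave 45 (8.70%), against 7.01% of all events, and DESeq2 gave 34. Lower inclusion was found in 62.1% of the members, against 58.7% of all events. TMM scaling shifted the median log2 odds ratio of the members by 0.255, from −0.42 to −0.14, and left 4 events, all lower. The share of all events under this scaling was not counted.

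IDH3G, the gamma subunit of the mitochondrial NAD-dependent isocitrate dehydrogenase, gave the largest of these differences, in 1 of 4 events of its exon. Its 12 nt exon was included at 93.4, 93.2 and 93.3% in Cisplatin-treated shControl cells and at 80.9, 79.4 and 82.7% in Cisplatin-treated shRNF113A cells (−12.3 points, adjusted p = 0.0185). Despite this separation it lost the test when any 1 of the 6 libraries was left out (adjusted p of 0.0948 to 0.224), with TMM scaling (adjusted p = 0.131) and with DESeq2 (adjusted p = 0.494). In untreated cells the levels were 98.5, 95.7 and 97.0% in shControl and 92.4, 92.9 and 89.9% in shRNF113A cells (−5.28 points, adjusted p = 0.699).

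The GAS5 exon stood at 92.7, 94.9 and 93.2% in Cisplatin-treated shControl and 82.9, 87.1 and 81.3% in shRNF113A cells (−9.84 points, adjusted p = 0.000664). Of the libraries left out in turn, only shRNF113A library a lost it the test (adjusted p = 0.081). With DESeq2 it did not pass (adjusted p = 0.6). It is 1 of 13 events of this exon, which shares an end with a longer cassette exon. The EIF4A1 exon was included at 98.9, 98.8 and 99.4% in shControl and 95.1, 96.4 and 92.5% in shRNF113A cells (−4.39 points, adjusted p = 1.29e-07). It held whichever library was left out, though not with DESeq2 (adjusted p = 0.0857), and has at least 1523 reads in each. It shares an end with a longer cassette exon, whose reads can count as its inclusion.

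The 23 nt exon of RPL41, which encodes a very short protein of the large ribosomal subunit, was skipped in few transcripts of any group. Its inclusion was 99.9, 99.8 and 99.8% in Cisplatin-treated shControl and 99.1, 99.3 and 98.7% in Cisplatin-treated shRNF113A cells. The difference was −0.796 points (adjusted p = 2.19e-07), from at least 12398 reads a library, and did not pass with DESeq2 (adjusted p = 0.105). A second event of the exon differed by −0.217 points (adjusted p = 0.0274). Exons with the median of 98.8 reads a library have too few reads to resolve a difference of this size.

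Whether the change with Cisplatin differed between shRNF113A and shControl cells was tested on the 34414 events with 10 or more reads in all 12 libraries, of which 352 were of 315 microexons. A single microexon event passed, beside 0.0349% of all events, and 26 (7.39%) had an unadjusted p under 0.05, against 6.39% of all events. It was the RPL41 exon, whose change with Cisplatin in shRNF113A cells less that in shControl cells was −0.816 points (adjusted p = 0.00472). This was lost without shControl untreated library b, shRNF113A untreated library a or c, or shRNF113A Cisplatin-treated library c (adjusted p up to 0.334) and with DESeq2. Larger differences did not pass, and those given next are of exons named above, not the largest. For the second MARK3 event the difference was −22.5 points (adjusted p = 0.703). For INCENP this difference was −11.1 points (adjusted p = 0.705), for PICALM −10.8 (adjusted p = 0.704) and for MTSS1L −16.7 (adjusted p = 0.703).

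Lists of genes known for microexons in neurons gave 45 microexons with reads in all 12 libraries. Of these, 5 were of vesicle traffic and endocytosis, 23 of the cytoskeleton and adhesion, 10 of signalling, 4 of transcription and chromatin and 3 of RNA and translation, and 41 were multiples of 3. A single event of these lists, that of PICALM, passed the adjusted p, 1 of 50 tested for Cisplatin in shRNF113A cells (2.0%, beside 1.82% of all events). For Cisplatin in shControl cells 0 of 62 passed, and between shRNF113A and shControl cells 0 of 60 untreated and 0 of 53 after Cisplatin, beside 0.315, 0.0939 and 0.721% of all events. In untreated shControl cells 25 of the 45 were included at under 10%, 12 at 10 to 90% and 8 at over 90%. The 18 nt exon of SRC, a tyrosine kinase, stood at 0.692 ± 0.212% (SD, n = 3) in untreated shControl cells, the 15 nt exon of DCTN1, a dynactin subunit, at 0.716 ± 0.659%, and the 12 nt exon of TEAD1, a transcription factor of the Hippo pathway, at 0.360 ± 0.314%.

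The 15 nt exon of ABI1, a subunit of the WAVE complex, stood at 2.80 ± 1.12%, the 18 nt exon of CTNND1, p120 catenin, at 2.23 ± 0.315%, and the 21 nt exon of MEF2D, a transcription factor, at 3.23 ± 2.87%. Intermediate levels were seen for the 27 nt exon of NCOR1, a nuclear corepressor, at 37.3 ± 7.13%, and for the 24 nt exon of CPEB2, a translation regulator, at 15.8 ± 2.81%. SPTAN1, alpha-II spectrin, carried 2 microexons at opposite ends of the scale, with 3.11 ± 3.49% for the 15 nt and 92.0 ± 3.16% for the 18 nt exon. ITSN1, a scaffold of endocytosis, held a 15 nt exon at 11.7 ± 3.82% and an 8 nt exon that ends at the same base, in a decay transcript, at 3.30 ± 1.07%.

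Finally, the genes known to act on microexons or 3′ splice sites were examined at the level of expression, as CPM. Of 30 in the list 26 were tested, with a call at an adjusted p under 0.05 and a change by a factor of 2 or more. SRRM4 was at 0 in 11 of 12 libraries, with a single low value of 0.0265 CPM, and was not tested. Its relative SRRM3 stood at 4.95 ± 0.553 CPM in untreated shControl cells. PTBP1 was abundant, at 420 ± 36.0 CPM, while its neuronal relative PTBP2 stood at 14.4 ± 0.305 CPM.

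With Cisplatin in shControl cells 12 of the 26 passed by adjusted p, 2 higher and 10 lower, and 1 was called, beside 55.0 and 19.8% of all genes. In shRNF113A cells 17 passed, 3 higher and 14 lower, and 4 were called, beside 60.2 and 23.1% of all genes. PTBP1 was lower in both, by a log2 of −0.35 ± 0.079 (SE, adjusted p = 0.00266) and −0.76 ± 0.079 (adjusted p = 5.62e-06). The 4 called genes were RBFOX3, NOVA1, CELF2 and TRA2B, all lower. TRA2B, a splicing activator of many exons, fell from 236 to 112 CPM (−1.06, adjusted p = 6.88e-07), and NOVA1 from 9.64 to 3.84 CPM (−1.32, adjusted p = 1.59e-05). RBFOX3, called in both, stood at 18.3, 7.65 and 19.6 CPM in untreated and 0.344, 0.241 and 0.364 CPM in Cisplatin-treated shControl cells, and its log2 change was −5.57 and −5.25. Without strand its change in shRNF113A cells was −0.45 (adjusted p = 0.267), so its value depends on the strand of the reads.

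Between shRNF113A and shControl cells 10 regulators passed in untreated cells, 4 higher and 6 lower, and 4 were called, beside 27.4 and 8.66% of all genes. In Cisplatin-treated cells 13 passed, 2 higher and 11 lower, and 1 was called, beside 42.9 and 12.3%. PTBP3, a paralog of PTBP1, was the called regulator with the largest fall in both. It stood at 217, 258 and 198 CPM in untreated shControl and at 54.1, 51.6 and 56.3 CPM in untreated shRNF113A cells (−2.06 ± 0.093, adjusted p = 7.59e-08), and it was lower after Cisplatin as well (−1.55 ± 0.092, adjusted p = 5.73e-07). SRRM3 fell from 4.95 to 2.17 CPM in untreated cells (−1.19 ± 0.191, adjusted p = 0.000814). CELF2 rose from 2.66 ± 2.11 to 15.8 ± 1.77 CPM there (2.56 ± 0.491, adjusted p = 0.00251), a change of 3.43 without shControl library 2 and of 2.18 without shControl library 1. Whether any of these levels bears on a microexon was not tested.

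**Figure D5:**
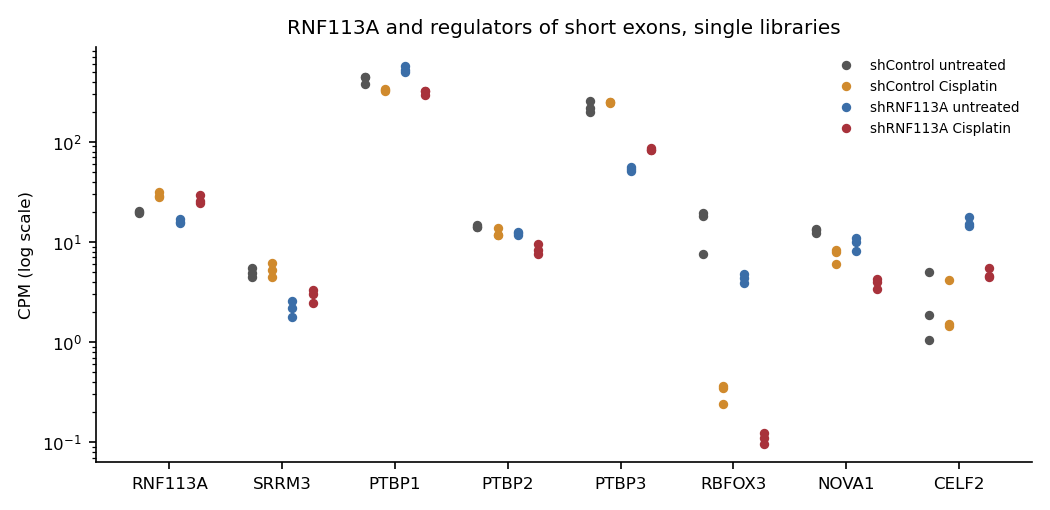
Expression of RNF113A and 7 splicing regulators in CPM (vertical axis, log scale) in the single libraries of the 4 groups, shown as colours. PTBP3 lies at 198 to 258 CPM in untreated shControl and at 51.6 to 56.3 CPM in untreated shRNF113A cells, and RNF113A at 15.3 to 31.7 CPM over all 12 libraries.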

How the data were processed

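Per the labels, stranded mRNA libraries were sequenced in paired ends. The authors aligned reads to hg19 and counted read pairs per gene with STAR (2.5.2b in the submitters' processing notes, which also name bcl2fastq 2.17), and ran rMATS on each pair of groups. The deposited counts are raw gene counts and raw inclusion and skipping read counts. The rMATS tables also hold the authors' p-values, FDR and inclusion differences, which were not used. Recomputed inclusion levels differed from the deposited levels by at most 0.0005.

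Inclusion against skipping counts were tested over all skipped exon events with edgeR 4.0.16 (R 4.3.3) by the quasi-likelihood test, each library having its own term, with no scaling beyond library size and Benjamini-Hochberg adjustment. Genes were tested with TMM scaling and filterByExpr on the counts of the gene's strand. CPM uses TMM. Rows that name no gene held 13.98 to 22.59% of pairs and were left out. On simulated data the splicing test called most changed events under negative binomial noise and none under beta-binomial noise, a simulation run first and followed by the others, so counts of calls may be low. Alternatives were DESeq2 1.42.0, TMM scaling, other minimum reads, another limit, unstranded counts, a replicate block and leaving out each library. Sequences came from GRCh37 and exon classes from its lifted Gencode annotation (Python 3.11.15, samtools 1.23.1).

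In the splicing tables the order of the 3 libraries of a group, here a, b and c, is not named. In gene counts, equally numbered libraries deviated together between untreated and Cisplatin-treated shControl cells (r = 0.485, 0.67 and 0.378 over 15272 genes), a pairing that rests on these values alone. In the other comparisons at least 1 pair was under 0.1.

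Microexons, gene lists and tests were chosen with earlier results of these data known. Named were called events, up to 8 more by size past the adjusted p, the most covered exons of at most 9 nt, those at the highest and lowest levels, up to 6 members of each list, and called regulators with SRRM4, SRRM3, PTBP1 and PTBP2. FLNA and MTSS1L beside the comparisons they did not pass, and DNM2 as the smallest p, were singled out after their values were seen.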

Additional observations from a re-analysis of the deposited data

Results flagged for a closer look

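For the 23 nt exon of RPL41 the change of inclusion with Cisplatin differed between shRNF113A and shControl cells by −0.816 points (adjusted p = 0.00472, edgeR, interaction of Cisplatin and shRNA over all 12 libraries). It was the only one of 352 microexon events to pass that test. The change was −0.881 points in shRNF113A and −0.0644 points in shControl cells, from levels above 98% in every library.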

How the results depend on the processing

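Lowering the limit from 20 to 10 points gave 2 called microexon events with Cisplatin in shControl cells, 9 in shRNF113A cells and 1 between shRNF113A and Cisplatin-treated shControl cells, where a minimum of 20 reads also gave 1. With DESeq2, 0 were called and 0 passed the adjusted p in shControl cells, 1 was called and 2 passed in shRNF113A cells, and 0 passed between shRNF113A and shControl cells after Cisplatin and for the interaction. TMM scaling gave 1 event between untreated cells. Leaving out each library in turn gave 0 called and 0 to 1 past the adjusted p for Cisplatin in shControl cells, 1 to 2 and 7 to 17 in shRNF113A cells, 0 to 1 and 0 to 1 between untreated cells, 0 and 2 to 4 between Cisplatin-treated cells, and 0 to 1 for the interaction. Of 206 values of named microexons, 138 kept their side of the threshold, 68 lost it and 0 changed direction. The causes were not tested. TMM scaling shifted the median log2 odds ratio of microexons by −0.058, 0.172, 0.022 and 0.255 in the 4 comparisons. No paired analysis was possible because the order of libraries in the splicing tables is not named. In gene counts, a replicate block gave 2 called regulators after Cisplatin between shRNF113A and shControl cells, as did unstranded counts and DESeq2, and it left 1, 4 and 4 in the other comparisons and RNF113A at −0.313 and −0.142. Leaving out 1 library gave 1 to 3 regulators there and 1 to 2 for Cisplatin in shControl cells. RNF113A then differed by −0.350 to −0.282 in untreated and −0.237 to −0.130 in Cisplatin-treated cells, and missed the threshold in untreated cells without shControl library 1 or 3 or shRNF113A library 1 or 2. SRRM3 with Cisplatin in shControl cells reversed to −0.047 without Cisplatin-treated library 2, in a range of −0.047 to 0.215. Microexon events with a median of 95.1 to 105 reads a library limit what small differences could be seen.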
